A study of Mus musculus with 4 samples.

Results

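Microglia, the resident macrophages of the central nervous system, were followed in whole mouse optic nerve through 35 genes that mark their homeostatic state or the disease-associated state. The genes were taken from a list of names, 17 of homeostatic or general microglial genes and 18 of disease-associated genes, and all 35 were found among the 55401 genes of each table by their mouse symbol. The nerves carried the genotype Dor WT (2 libraries) or Dor cKO, a conditional knockout of Dor (2 libraries), both from the tissue given as optic nerves. Age, sex, strain, the Cre driver, the number of animals per library and any treatment are not stated in the sources used here, and nothing states that the libraries of a group came from separate animals, so p-values measure only the spread between these libraries.

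Homeostatic microglia survey the tissue with fine processes and carry receptors such as P2RY12 and CX3CR1, and they depend on signalling through the CSF1 receptor. Around damaged myelin or amyloid, and also in white matter that is being myelinated in early postnatal life, some microglia lower the homeostatic receptors and raise genes such as Itgax, Clec7a, Cst7, Spp1 and Gpnmb. The receptor TREM2, which binds lipids and signals through the adaptor TYROBP, is required for much of that change around damaged myelin or amyloid. Several genes of the disease-associated set, among them Cd9, Cd63, Fabp5, Axl, Csf1, Ctsz, Spp1, Gpnmb and Lgals3, are also made by other cells of the nerve.

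The libraries held 17263830 to 21595832 expected counts, so 3 counts correspond to 0.139 to 0.174 CPM (counts scaled by library size) when unscaled totals are used. The CPM values below use TMM-scaled sizes. Trp53inp2, for which Dor is another name, measured 138 and 134 CPM in the Dor WT nerves against 105 and 107 CPM in the Dor cKO nerves, a log2 fold change of -0.36 (SE 0.04, edgeR adjusted p = 2.73e-08). Counts over the whole gene in whole tissue do not check a deletion limited to some cells. A tag that may be an age stands in the table names of Dor WT but not of Dor cKO, and the mean fragment length was 260 bases in both Dor WT libraries and 245 bases in both Dor cKO libraries, so genotype cannot be told apart from a difference in age or preparation. In bulk tissue, fewer cells of a type and less RNA per cell cannot be told apart either.

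Of the 35 genes, 34 passed the filter on low counts, and 11 of these were higher and 7 lower in Dor cKO at an edgeR adjusted p under 0.05. Among all 16751 genes tested, 14.3% were called higher, 13.4% lower and 27.7% in either direction, against 32.4%, 20.6% and 52.9% of the 34 members. The median log2 fold change of the members was 0.14, beside -0.0036 for all genes tested. The CPM values of the groups did not overlap for 25 of 34 members (73.5%), where 60.8% of all genes tested did not overlap. Most differences were small. Only Cst7 and Clec7a were called and changed by at least 1.5-fold (5.88% of the tested members against 4.9% of all genes tested). Setting the biological coefficient of variation to 0.1, above the 0.03477 estimated here, gave a likelihood ratio test that called 6 of the 34 members (17.6%) against 9.52% of all genes. These were Tmem119, Cd9, Fabp5, Cst7, Clec7a and Itgax. With limma on log2(TPM + 1) the share was 8 of 34 (23.5%) against 8.29%, and the 8 were Tmem119, Csf1r, P2ry12, Axl, Cd9, Fabp5, Ctsz and Cd63.

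Both sets went both ways. Of the 17 homeostatic and general genes, 5 rose, 3 fell and 9 did not pass the test, with a median of 0.11. With a trend on gene length and GC content removed, this median was 0.027, that of all members 0.078, and 1 homeostatic gene fell. Of the 17 tested disease-associated genes, 6 rose, 4 fell and 7 did not pass, with a median of 0.17. The 9 of them named above as also made by other cells gave 4 rises and 2 falls, with a median of 0.183. The other 8 tested genes gave 2 rises and 2 falls, with a median of 0.058. The remaining disease-associated gene, Mmp12, a macrophage metalloelastase, reached only 3 and 0 counts in Dor WT against 1 and 1 in Dor cKO and did not pass the filter.

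**Figure D1:**
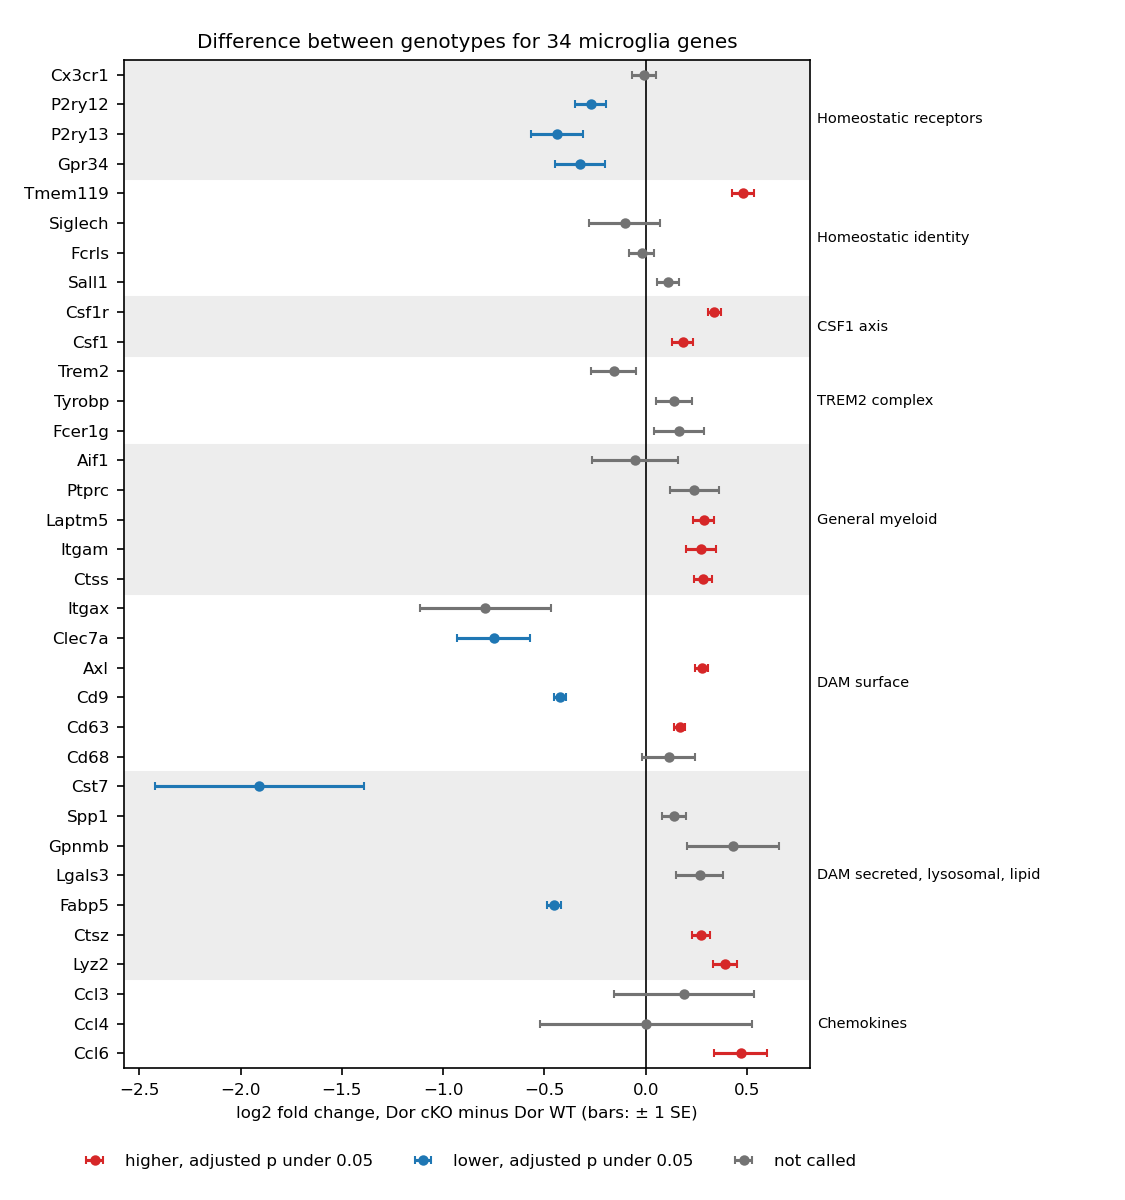
Log2 fold change of each tested gene (x axis, Dor cKO minus Dor WT; points with bars of 1 SE), grouped by role, with DAM standing for disease-associated microglia. The 11 called rises lie between 0.17 and 0.48, and the 7 called falls between -1.91 and -0.27, with P2ry12, P2ry13 and Gpr34 to the left of zero and Tmem119 and Csf1r to the right.

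Transcript levels, in TPM, a unit that corrects for gene length, spanned a wide range. The highest were the tetraspanin gene Cd63, with 456.0 and 454.5 TPM in the Dor WT nerves against 491.8 and 501.5 TPM in the Dor cKO nerves, then the fatty acid binding protein gene Fabp5 (397.1, 416.5, 290.3 and 290.4 TPM in the same order) and the tetraspanin gene Cd9 (397.4, 388.6, 286.7 and 287.2 TPM). The levels of Fabp5 and Cd9 overlapped in Dor WT, and in Dor cKO both Fabp5 values lay slightly above both Cd9 values. Csf1r followed as the most abundant gene of the homeostatic set, with 132 and 130 TPM in the Dor WT nerves against 153 and 148 TPM in the Dor cKO nerves. Next in the order came Ctss, Ctsz, Lyz2 and Tyrobp, with means over the 4 libraries of 132, 118, 104 and 102 TPM, and the values of Lyz2 and Tyrobp overlapped. Itgax and Mmp12 were the lowest of the list, with means of 0.845 and 0.1 TPM. The typical disease-associated markers Clec7a (9.23 TPM), Cst7 (2.04 TPM), Gpnmb (1.97 TPM) and Itgax lay below the homeostatic genes Tmem119 (49.5 TPM) and P2ry12 (36.7 TPM). The sets overlapped in level, since Clec7a lay above the homeostatic genes P2ry13 (7.96 TPM), Siglech (7.15 TPM) and Ptprc (4.81 TPM). Spp1, a secreted phosphoprotein gene, was higher, at 65.2 TPM.

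**Figure D2:**
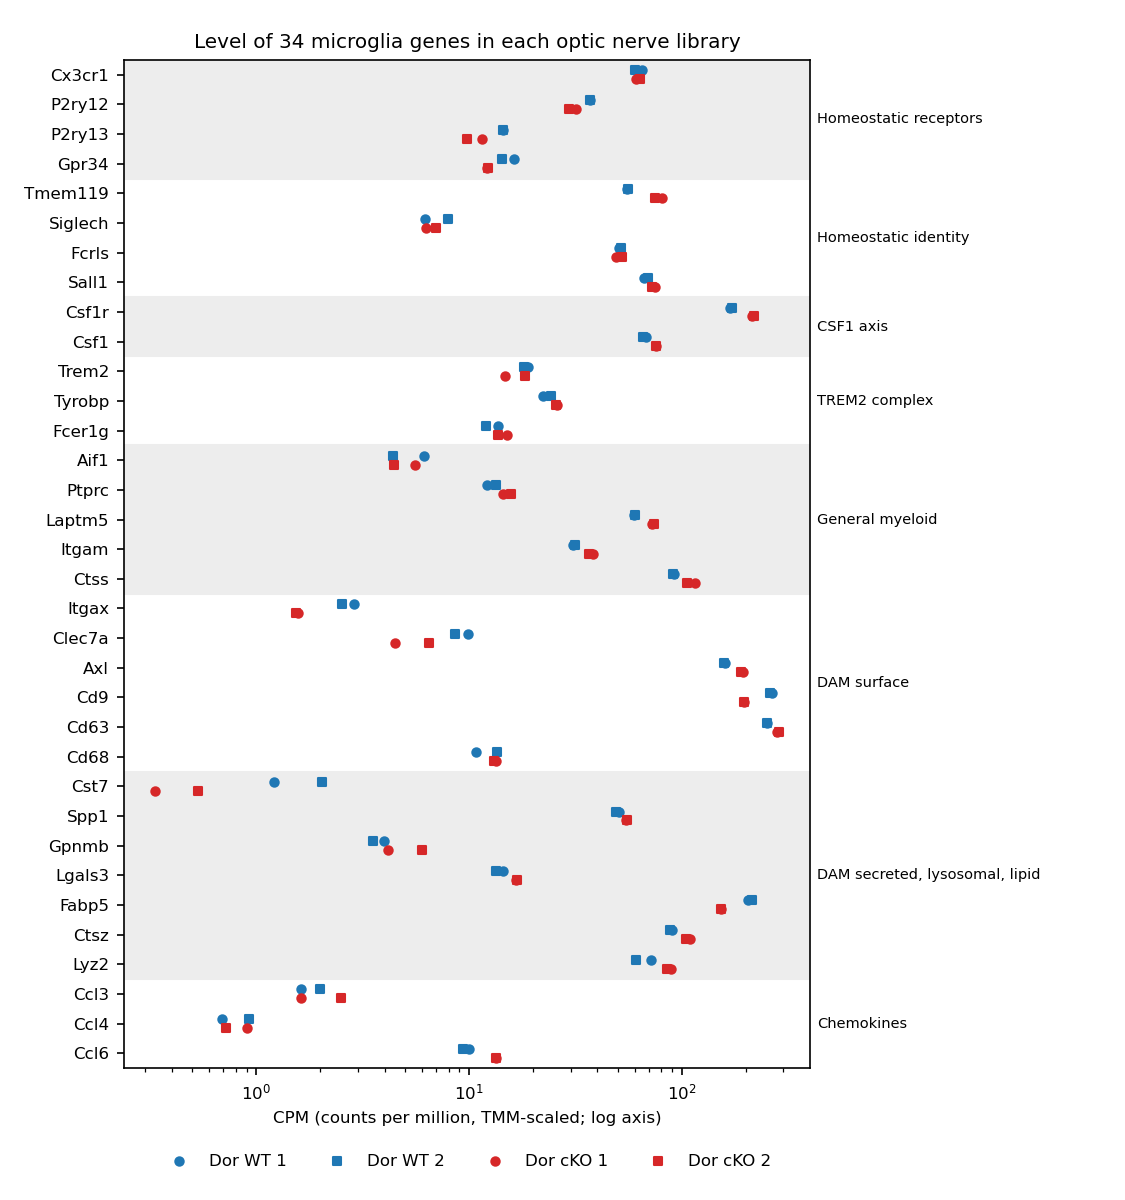
CPM of each tested gene (x axis, log scale) in the 4 libraries, Dor WT in blue and Dor cKO in red, with circles for replicate 1 and squares for replicate 2. Cd9, Cd63, Fabp5, Csf1r and Axl lie above 150 CPM in every library, and Cst7, Itgax, Ccl3 and Ccl4 below 3 CPM.

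Of 4 receptors of homeostatic microglia, 3 that sense nucleotides or lysophospholipids fell in Dor cKO. P2ry12, the ADP receptor that guides microglial processes (chromosome 3, 59216272 to 59262871, GRCm38), had 36.8 and 37.0 CPM in the Dor WT nerves against 31.8 and 29.3 CPM in the Dor cKO nerves. Both Dor cKO libraries lay below both Dor WT libraries, and the gene fell by 0.27 (SE 0.08, edgeR adjusted p = 6.65e-03). P2ry13, a related ADP receptor gene on the same chromosome (59207892 to 59210882), had 14.4 and 14.4 CPM in the Dor WT nerves against 11.5 and 9.78 CPM in the Dor cKO nerves. It fell by 0.44 (SE 0.13, adjusted p = 0.01). Gpr34, a lysophosphatidylserine receptor gene on the X chromosome, had 16.3 and 14.3 CPM against 12.1 and 12.3 CPM and fell by 0.32 (SE 0.12, adjusted p = 0.0479). Cx3cr1, the receptor for the neuronal chemokine fractalkine, did not share this pattern. Its values were 65.2 and 60.3 CPM in the Dor WT nerves against 60.8 and 63.7 CPM in the Dor cKO nerves, with overlapping groups and a log2 fold change of -0.01 (SE 0.06, adjusted p = 0.94).

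The 3 falls had limits of counting and of replication. Without Dor cKO replicate 2, none of them was called with edgeR (P2ry12 -0.21, adjusted p = 0.119; P2ry13 -0.33, adjusted p = 0.16; Gpr34 -0.33, adjusted p = 0.145), and neither P2ry12 (-0.17, adjusted p = 0.106) nor Gpr34 (-0.20, adjusted p = 0.27) was called after removal of the length and GC trend. The Gpr34 call was lost under 9 of 14 alternatives, among them DESeq2 (adjusted p = 0.142) and the removal of Dor WT replicate 1 (-0.23, adjusted p = 0.276) and, separately, of Dor cKO replicate 1 (-0.31, adjusted p = 0.169). P2ry12 and P2ry13 lie inside Med12l, which runs on the opposite strand, and Gpr34 lies inside Cask, also on the opposite strand. Med12l fell by 0.57 (SE 0.10, adjusted p = 3.8e-05) and Cask by 0.25 (SE 0.04, adjusted p = 4.94e-06). In the annotation P2ry12 shares 9 of its 2546 exon bases with Med12l, P2ry13 shares 0 of 2528 with it and Gpr34 shares 0 of 2090 with Cask. The strand setting of the counting is not known here, and the part of these neighbours in the falls was not tested.

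Genes that mark microglial identity did not move as a group. Tmem119, a transmembrane protein gene used to set microglia apart from other macrophages (chromosome 5, 113793729 to 113800516), had 55.1 and 55.8 CPM in the Dor WT nerves against 80.4 and 74.5 CPM in the Dor cKO nerves. Both Dor cKO libraries were higher, and the gene rose by 0.48 (SE 0.06, adjusted p = 6.67e-08), 1.40-fold, the largest rise of the list. It was called under every one of the 14 alternatives, and so were Cd9 and Fabp5. Whether cells other than microglia had a part in the Tmem119 rise was not tested. Sall1, a transcription factor gene that keeps microglial identity, had 66.7 and 69.2 CPM against 74.6 and 72.3 CPM, with a log2 fold change of 0.11 that did not pass the test (SE 0.05, adjusted p = 0.126). Fcrls, an Fc receptor-like gene, had 50.7 and 51.6 CPM against 48.7 and 52.3 CPM (log2 fold change -0.02, SE 0.06). Siglech, a sialic acid binding lectin gene, had 6.22 and 7.97 CPM against 6.29 and 6.98 CPM (log2 fold change -0.10, SE 0.17). The groups overlapped for Fcrls and for Siglech.

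The CSF1 receptor and its ligand both rose. Csf1r, the receptor on which microglia and other macrophages depend for survival, had 169 and 171 CPM in the Dor WT nerves against 213 and 217 CPM in the Dor cKO nerves, and rose by 0.34 (SE 0.03, adjusted p = 7.24e-10). With limma on log2(TPM + 1) the Csf1r value was 0.20 (adjusted p = 0.0482). Of its 5774 annotated exon bases, 873 are shared with Hmgxb3 on the opposite strand. Csf1, which encodes a ligand of this receptor, had 67.6 and 65.6 CPM against 75.6 and 75.4 CPM and rose by 0.18 (SE 0.05, adjusted p = 7.95e-03). The Csf1 call did not hold without Dor WT replicate 2 (0.16, adjusted p = 0.0535), without Dor cKO replicate 1 (0.18, adjusted p = 0.0558) and with limma on log2(TPM + 1) (adjusted p = 0.124). Of 11 further genes for the other ligand of the receptor and for TGF-beta signalling, which maintains the homeostatic state, 7 rose and 4 did not pass. Tgfb2 rose by 0.19 (SE 0.03), Tgfbr2 by 0.47 (SE 0.03), Itgav by 0.16 (SE 0.04) and Smad3 by 0.29 (SE 0.05), and these genes are also made by astrocytes, vessels and fibroblasts. Il34, which encodes that other ligand and was picked out after its value was seen, rose by 0.33 (SE 0.09, adjusted p = 4.2e-03).

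Of 5 general myeloid genes, 3 rose and 2 did not pass the test. Laptm5, a lysosomal membrane protein gene of leukocytes, had 59.6 and 60.3 CPM in the Dor WT nerves against 72.3 and 73.9 CPM in the Dor cKO nerves and rose by 0.29 (SE 0.05, adjusted p = 1.21e-04). Ctss, the lysosomal protease cathepsin S gene, had 91.5 and 90.7 CPM against 115 and 106 CPM and rose by 0.28 (SE 0.05, adjusted p = 1.65e-05). Itgam, which encodes the integrin chain CD11b, had 30.6 and 31.3 CPM against 38.3 and 36.4 CPM and rose by 0.27 (SE 0.07, adjusted p = 5.73e-03). For each of these genes both Dor cKO libraries lay above both Dor WT libraries. The Itgam call did not hold without Dor cKO replicate 1 (0.23, adjusted p = 0.0855), and none of the 3 was called with limma on log2(TPM + 1) (adjusted p = 0.0552 for Ctss, 0.163 for Itgam and 0.262 for Laptm5, whose value was 0.15). Ptprc, the leukocyte phosphatase gene CD45, had 12.1 and 13.4 CPM against 14.4 and 15.8 CPM, a difference of 0.24 that did not pass (SE 0.12, adjusted p = 0.155), although Ptprc was called after removal of the length and GC trend (0.36, adjusted p = 0.0268). Aif1, the gene of the microglial stain IBA1, had 6.10 and 4.37 CPM against 5.57 and 4.43 CPM, with overlapping groups and a log2 fold change of -0.05 (SE 0.21).

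These general genes, and Csf1r, are shared with macrophages of the meninges and vessels, some of whose markers also rose. Of 12 border macrophage genes, 7 rose, 5 did not pass and the median was 0.43, and none was at 0 in any library. Their summed level was 348 and 351 CPM in the Dor WT nerves against 465 and 477 CPM in the Dor cKO nerves. The mannose receptor gene Mrc1 rose by 0.49 (SE 0.04), Stab1 by 0.31 (SE 0.04), F13a1 by 0.44 (SE 0.05) and Cd163 by 0.53 (SE 0.07). Of 16 blood leukocyte genes, 10 could be tested, 3 rose and 7 did not pass. Their summed level was 76.2 and 75.6 CPM in the Dor WT nerves against 94.6 and 98.0 CPM in the Dor cKO nerves. The neutrophil genes S100a8 and S100a9 rose by 0.39 (SE 0.10) and 0.34 (SE 0.08), and the gene Plac8 by 0.61 (SE 0.20). The neutrophil gene Ngp did not pass (0.24, SE 0.12, edgeR adjusted p = 0.163). Ly6g, also a neutrophil gene, had at most 7 counts and was not tested. With DESeq2 the rises in this list numbered 2. The lymphocyte genes Cd8a and Nkg7 were at 0 in 2 and 1 of the 4 libraries and had at most 7 counts elsewhere. The part of these cells in the rises of the members was not tested.

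The promoters of P2ry12, P2ry13, Clec7a, Itgam, Ctss and Laptm5 are shown because these genes are typical of microglia or other myeloid cells and went in opposite directions, the first 3 down and the last 3 up. Each line gives the 250 bases before the start of transcription as listed by RefSeq on GRCm38.p6, read 5′ to 3′ on the strand of the gene. Capitals mark GAGGAA, the core recognised by the myeloid factor PU.1, or the interferon-stimulated response element, GAAA followed by any 2 bases and GAAA, on either strand. The windows are chr3:59262986-59263235 (minus strand) for P2ry12, chr3:59210883-59211132 (minus) for P2ry13, chr6:129472780-129473029 (minus) for Clec7a, chr7:128062390-128062639 (plus) for Itgam, chr3:95526536-95526785 (plus) for Ctss and chr4:130913066-130913315 (plus) for Laptm5.
P2ry12: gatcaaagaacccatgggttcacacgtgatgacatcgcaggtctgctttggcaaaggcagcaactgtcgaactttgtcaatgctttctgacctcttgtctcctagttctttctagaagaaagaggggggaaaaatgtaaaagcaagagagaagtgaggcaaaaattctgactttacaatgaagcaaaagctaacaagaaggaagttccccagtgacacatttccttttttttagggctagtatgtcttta
P2ry13: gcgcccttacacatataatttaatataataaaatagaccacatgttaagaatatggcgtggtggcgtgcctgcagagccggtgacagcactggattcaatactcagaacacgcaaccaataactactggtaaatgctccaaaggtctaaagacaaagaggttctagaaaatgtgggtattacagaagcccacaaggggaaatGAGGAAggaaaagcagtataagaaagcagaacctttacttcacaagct
Clec7a: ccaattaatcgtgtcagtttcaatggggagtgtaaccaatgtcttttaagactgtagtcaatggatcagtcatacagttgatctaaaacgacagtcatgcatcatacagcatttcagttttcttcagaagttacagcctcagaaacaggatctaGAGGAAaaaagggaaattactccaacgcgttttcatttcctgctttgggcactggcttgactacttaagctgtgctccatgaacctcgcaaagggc
Itgam: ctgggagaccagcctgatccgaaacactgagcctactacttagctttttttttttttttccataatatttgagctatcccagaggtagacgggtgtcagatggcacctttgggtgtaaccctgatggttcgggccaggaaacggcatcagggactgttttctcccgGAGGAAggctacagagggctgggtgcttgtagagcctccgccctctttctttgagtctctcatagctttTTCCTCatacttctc
Ctss: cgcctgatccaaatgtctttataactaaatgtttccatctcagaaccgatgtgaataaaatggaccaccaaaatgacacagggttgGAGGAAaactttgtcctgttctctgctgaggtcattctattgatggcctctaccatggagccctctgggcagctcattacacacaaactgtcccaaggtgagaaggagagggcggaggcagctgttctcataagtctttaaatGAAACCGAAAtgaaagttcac
Laptm5: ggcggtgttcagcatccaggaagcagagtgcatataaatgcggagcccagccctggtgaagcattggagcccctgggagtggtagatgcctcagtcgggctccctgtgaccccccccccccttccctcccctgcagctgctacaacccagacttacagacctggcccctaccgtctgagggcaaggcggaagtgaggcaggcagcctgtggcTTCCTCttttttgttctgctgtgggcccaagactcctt

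The GAGGAA letters stood in the windows of 5 of 9 members that rose, 2 of 5 that fell and 7 of 14 that were not called, so both directions included members with and without them. RefSeq windows matched 29 of the 35 members. In all, 15 of these 29 (51.7%) held GAGGAA, beside 25.9% of the 27025 genes with a window. The response element stood in 3 of 29 (10.3%), those of Aif1, Ctss and Spp1, beside 3.46% of all genes with a window. Of these, Ctss rose and the other two were not called. In the 15 interferon-responsive genes listed for comparison all 15 rose, with a median of 1.49, so the rises of the members were smaller than the changes of that list. A match in these letters is a description of the window only.

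Trem2, the adaptor gene Tyrobp and the related adaptor gene Fcer1g did not pass the test. Trem2 had 18.8 and 18 CPM in the Dor WT nerves against 14.8 and 18.2 CPM in the Dor cKO nerves, with overlapping groups and a log2 fold change of -0.16 (SE 0.11, adjusted p = 0.336). The Trem2 value was -0.014 without Dor cKO replicate 1 and -0.32 without Dor cKO replicate 2, and was not called in either fit. Tyrobp, its signalling adaptor, had 22.1 and 24.3 CPM against 25.8 and 25.6 CPM (0.14, SE 0.09, adjusted p = 0.264). Fcer1g, the related adaptor of Fc receptors, had 13.6 and 12 CPM against 15 and 13.6 CPM (0.16, SE 0.12, adjusted p = 0.374). With edgeR, 0 of these 3 were called, 0 had an unadjusted p under 0.05, and 0 were called with DESeq2 or with limma. Of 14 tested genes of signalling below such receptors, 12 did not pass. Plcg2, a phospholipase gene that acts downstream of TREM2, had 21.7 and 20.1 CPM against 14.5 and 16.4 CPM and fell by 0.43 (SE 0.11, adjusted p = 2.21e-03), and the phosphatase gene Ptpn6 rose by 0.39 (SE 0.11, adjusted p = 6.63e-03). The Plcg2 call did not hold without Dor cKO replicate 1 and with limma, and the Ptpn6 call without Dor cKO replicate 2 and with limma. Neither was called with the coefficient of variation at 0.1.

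Clec7a and Cst7, markers of the disease-associated state with low levels, fell in Dor cKO. Clec7a, the beta-glucan receptor Dectin-1 (chromosome 6, 129461591 to 129472779), had 9.84 and 8.61 CPM in the Dor WT nerves against 4.48 and 6.45 CPM in the Dor cKO nerves, and fell by 0.75 (SE 0.18, adjusted p = 1.74e-03), 1.68-fold lower. Cst7, which encodes the protease inhibitor cystatin F (chromosome 2, 150570415 to 150578944), had counts of 21 and 44 in the Dor WT nerves against 7 and 11 in the Dor cKO nerves. It fell by 1.91 (SE 0.52, adjusted p = 5.39e-03), 3.75-fold lower, the largest difference of the list and one that rests on few reads. Itgax, the gene of the integrin chain CD11c, had counts of 50 and 55 against 33 and 32, with a log2 fold change of -0.79 that did not pass the test (SE 0.32, adjusted p = 0.0699). For all 3 genes both Dor cKO libraries lay below both Dor WT libraries. The Clec7a call did not hold without Dor cKO replicate 1 (-0.51, adjusted p = 0.0783) and with limma on log2(TPM + 1) (-0.63, adjusted p = 0.167). The Cst7 call did not hold without Dor WT replicate 2 (-1.47, adjusted p = 0.181), without Dor cKO replicate 1 (-1.61, adjusted p = 0.0867) and with limma (-1.18, adjusted p = 0.054).

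Other typical members of the state were not called. Spp1 had 50.8 and 48.9 CPM in the Dor WT nerves against 54.4 and 55.3 CPM in the Dor cKO nerves (log2 fold change 0.14, SE 0.06, adjusted p = 0.0894). Gpnmb, a transmembrane glycoprotein gene, had 3.97 and 3.55 CPM against 4.14 and 5.97 CPM (0.43, SE 0.23, adjusted p = 0.169). Lgals3, the galectin-3 gene, had 14.4 and 13.4 CPM against 16.5 and 16.8 CPM (0.27, SE 0.11, adjusted p = 0.0863). Cd68, a lysosomal glycoprotein gene of phagocytes, had 10.8 and 13.6 CPM against 13.4 and 13.1 CPM (0.11, SE 0.13). None of these 4 genes passed the edgeR test, although Spp1 was called after removal of the length and GC trend (0.19, adjusted p = 0.0203).

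Axl, a receptor tyrosine kinase gene for the clearance of dying cells, had 159 and 158 CPM in the Dor WT nerves against 194 and 190 CPM in the Dor cKO nerves and rose by 0.28 (SE 0.03, adjusted p = 7.41e-08). The gene of its bridging ligand, Gas6, rose by 0.18 (SE 0.05), and the related gene Pros1 rose by 0.38 (SE 0.04). Lyz2, the lysozyme gene of macrophages and neutrophils, had 71.7 and 61.1 CPM against 88.6 and 84.6 CPM and rose by 0.39 (SE 0.06, adjusted p = 1.99e-05). The Lyz2 call was lost with limma on log2(TPM + 1) (0.36, adjusted p = 0.0736). Its close copy Lyz1 had at most 0.191 CPM in any library. Ctsz, the cathepsin Z gene, had 89.4 and 87.4 CPM against 109 and 105 CPM and rose by 0.27 (SE 0.04, adjusted p = 1.71e-05). Cd63 had 252 and 251 CPM against 280 and 285 CPM and rose by 0.17 (SE 0.03, adjusted p = 1.36e-05). After removal of the length and GC trend the Cd63 value was 0.08 (adjusted p = 0.0267). The groups did not overlap for any of Axl, Lyz2, Ctsz and Cd63, and each of them changed by less than 1.5-fold.

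Cd9 and Fabp5, the members with the highest mean TPM after Cd63, fell. Cd9 had 266 and 259 CPM in the Dor WT nerves against 196 and 196 CPM in the Dor cKO nerves and fell by 0.42 (SE 0.03, adjusted p = 1.36e-12). Fabp5 had 204 and 214 CPM against 153 and 153 CPM and fell by 0.45 (SE 0.03, adjusted p = 6.71e-12). Cells of the oligodendrocyte lineage also express Cd9. All 14 oligodendrocyte genes listed for comparison fell, with a median of -0.81 and a summed level of 31728 and 31595 CPM in Dor WT against 18316 and 18245 CPM in Dor cKO, none at 0. Among them Mbp fell by 0.73 (SE 0.01), Cnp by 0.75 (SE 0.01) and Mobp by 0.85 (SE 0.01). Of 8 precursor genes, 6 fell and 2 did not pass, with a median of -0.37. Of all genes tested, 13.4% were called lower. The precursor falls numbered 4 with DESeq2 and 3 with limma. The log2 fold change was -1.18 for Gpr17 (SE 0.02) and -0.60 for Vcan (SE 0.03). It was only -0.07 for Ptprz1 (SE 0.02, edgeR adjusted p = 0.0416) and -0.07 for Pdgfra (SE 0.03, edgeR adjusted p = 0.044). The part of these cells in the falls of Cd9 and Fabp5 was not tested.

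Chemokine genes of the list were low, and 1 of 3 rose. Ccl6, a chemokine gene of myeloid cells, had 10.02 and 9.30 CPM in the Dor WT nerves against 13.4 and 13.3 CPM in the Dor cKO nerves and rose by 0.47 (SE 0.13, adjusted p = 6.98e-03). That call did not hold without Dor WT replicate 2 (0.41, adjusted p = 0.0512) and with limma (0.43, adjusted p = 0.0618). Ccl3, a chemokine gene whose product attracts leukocytes, had counts of 28 and 43 against 34 and 52 (log2 fold change 0.19, SE 0.35), and Ccl4, its neighbour on chromosome 11, had 12 and 20 against 19 and 15 (0.0027, SE 0.52). The standard errors leave changes of both signs possible for Ccl3 and Ccl4 at this depth. Of 11 further ligand and chemokine genes, 6 rose and 5 did not pass. Cxcl16 rose by 0.32 (SE 0.08) and Ccl12 by 0.62 (SE 0.23).

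Ratios of counts within a library do not depend on how the libraries were scaled and show how the members moved against each other. P2ry12 counts were 66.7% and 66.3% of Tmem119 counts in the Dor WT nerves against 39.6% and 39.4% in the Dor cKO nerves. Set against Csf1r, P2ry12 stood at 21.8% and 21.6% in the Dor WT nerves against 15% and 13.5% in the Dor cKO nerves. Tmem119 stood at 32.7% and 32.7% of Csf1r in the Dor WT nerves against 37.8% and 34.3% in the Dor cKO nerves. Cx3cr1, whose own difference did not pass the test, stood at 38.6% and 35.2% of Csf1r in the Dor WT nerves against 28.6% and 29.3% in the Dor cKO nerves. Clec7a was at 5.83% and 5.03% of Csf1r in the Dor WT nerves against 2.10% and 2.97% in the Dor cKO nerves, and Itgax at 1.70% and 1.48% against 0.739% and 0.709%. Trem2 was at 11.1% and 10.5% against 6.94% and 8.38%. Since Csf1r itself rose, a gene whose own difference did not pass, such as Tyrobp, Trem2 or Cx3cr1, can also lie lower as a percent of it. These ratios were not tested, and they still carry any shift tied to gene length or GC content. With that trend removed, the log2 fold change was -0.17 for P2ry12, 0.41 for Tmem119 and 0.28 for Csf1r. Without the removal these values were -0.27, 0.48 and 0.34.

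**Figure D3:**
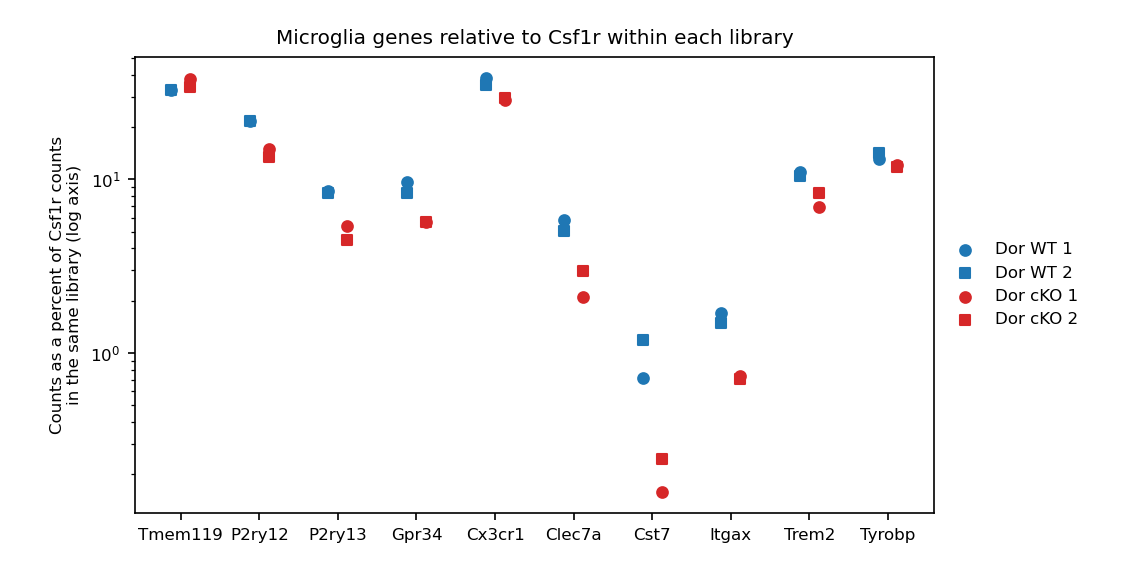
Counts of 10 microglia genes as a percent of the Csf1r counts of the same library (y axis, log scale), Dor WT in blue and Dor cKO in red, circles for replicate 1 and squares for replicate 2. P2ry12, P2ry13, Gpr34, Cx3cr1, Clec7a, Cst7, Itgax, Trem2 and Tyrobp lie lower in both Dor cKO libraries, whereas Tmem119 lies slightly higher, at 34.3% and 37.8% against 32.7%. Csf1r itself rose by 0.34, so a gene that did not rise as much lies lower on this scale.

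Of 21 further homeostatic genes, 7 rose, 1 fell and 13 did not pass, with a median of 0.18. The complement genes C1qb and C1qc rose by 0.27 (SE 0.05) and 0.15 (SE 0.04), the integrin gene Itgb5 rose by 0.23 (SE 0.04), and the adhesion receptor gene Adgrg1 fell by 0.14 (SE 0.04). Of 19 further disease-associated genes with a measured value, 6 rose, 2 fell and 11 did not pass, with a median of 0.08. The lipid carrier gene Apoe rose by 0.28 (SE 0.01), and the lysosomal protease genes Ctsb, Ctsl and Ctsa rose by 0.15 (SE 0.02), 0.11 (SE 0.03) and 0.22 (SE 0.03). Apoe stood at 11398 and 11480 TPM in the Dor WT nerves against 13306 and 13270 TPM in the Dor cKO nerves. The part of other cells of the nerve in these rises was not tested. Lpl, the lipoprotein lipase gene of the disease-associated state, was picked out after its value was seen. It had 18.9 and 24.1 CPM in the Dor WT nerves against 12.4 and 16.3 CPM in the Dor cKO nerves. Lpl fell by 0.59 (SE 0.13, edgeR adjusted p = 2.03e-03). Falls in this list of further disease-associated genes numbered 2 with edgeR, 1 with DESeq2 and 1 with limma. The part of other cells of the nerve in the fall of Lpl was not tested.

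Of 13 transcription factor genes of microglia and macrophages, 6 rose, 1 fell and 6 did not pass, with a median of 0.26. Maf, a factor of macrophage identity, rose by 0.32 (SE 0.04), Mef2a by 0.15 (SE 0.04), Bhlhe41 by 0.35 (SE 0.05) and Cebpa by 0.28 (SE 0.09), of which some are also active in other cells of the nerve. Spi1, the gene of PU.1, was picked out after its value was seen. It had 9.33 and 11.5 CPM in the Dor WT nerves against 14.2 and 15.2 CPM in the Dor cKO nerves and rose by 0.49 (SE 0.13, adjusted p = 4.68e-03). The number of rises in this list was 3 without Dor WT replicate 1 and 3 without Dor cKO replicate 2, and it was 0 with limma. Fewer genes were also called elsewhere under the stricter settings. With limma the rises numbered fewer in the lists of TGF-beta signalling (1), ligands and chemokines (0), border macrophages (4), blood leukocytes (1), further homeostatic genes (3) and further disease-associated genes (2). The last of these lists had 3 rises without Dor cKO replicate 1. With the coefficient of variation at 0.1, rises numbered 0 among the further homeostatic genes, 0 among the further disease-associated genes, 1 in the TGF-beta list, 2 among the transcription factors, 3 among ligands and chemokines, 5 among border macrophage genes and 2 among blood leukocyte genes. Astrocyte, fibroblast and endothelial genes, given here only as the surroundings, rose in 9 of 10, 9 of 10 and 4 of 10 members. Of all genes tested, 14.3% rose. Aqp4 fell in the astrocyte list and Col15a1 in the fibroblast list, and 6 endothelial genes did not pass. The medians of the lists were 0.266, 0.303 and 0.175 in the same order.

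**Figure D4:**
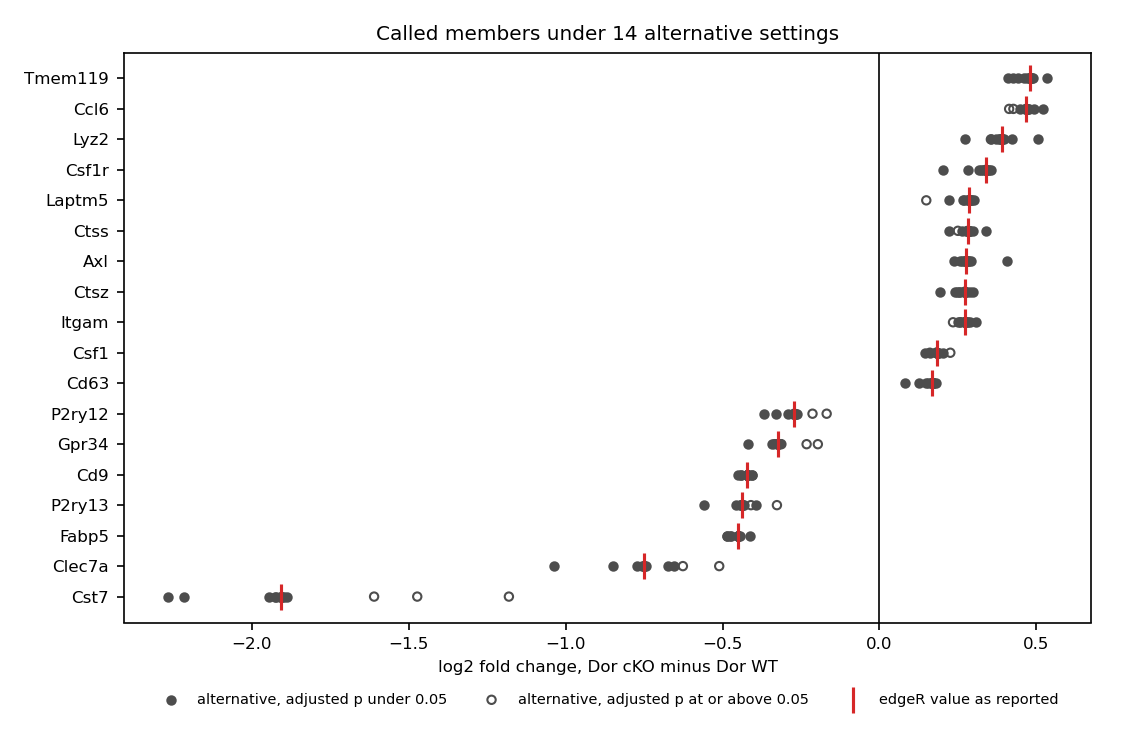
Log2 fold changes of the 18 called members (x axis) as reported with edgeR (red bars) and under 14 alternative settings (circles, filled where the adjusted p was under 0.05). All 18 kept their direction under these alternatives, and Tmem119, Cd9 and Fabp5 were called in each.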

How the data were processed

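RNA was taken from optic nerves, and polyadenylated RNA was sequenced as paired reads, per the labels' protocols. Trimmomatic 0.36, STAR 2.7.9a and RSEM 1.3.1 are listed, with the build GRCm38, in the submitters' processing notes. Neither annotation release nor strand setting is given in the sources used here. The deposited tables hold, per the file headers, RSEM expected counts, TPM, gene lengths and a posterior standard deviation of each count, used here as a score of how uncertain the sharing of reads was. This posterior value was at most 0.541% of the count for any member.

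Symbols came from GENCODE M21 (GRCm38) and matched 55141 of 55401 identifiers. Expected counts were rounded and filtered with filterByExpr (minimum count 10, minimum total 15), and all 16751 remaining genes were tested with edgeR 4.0.16 (TMM, robust quasi-likelihood, genotype only, Benjamini-Hochberg adjustment). Calls needed an adjusted p under 0.05. SE is the fold change divided by the square root of F. CPM values use TMM-scaled library sizes, and fold changes are Dor cKO minus Dor WT. Alternatives used DESeq2 1.42.0, limma 3.58.1 on log2(TPM + 1) from the deposited TPM, other scalings and filters, a loess trend (span 0.3) and leaving out libraries. The steps were tested on simulated counts.

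The members, lists and alternatives were chosen with earlier results of these data known. Named were all members, Trp53inp2 and, from each further list, up to 4 called genes with the highest mean CPM. Il34, Lpl, Spi1, Cd8a, Nkg7, Ngp and Ly6g were picked outside this rule after their values were seen. Med12l, Cask, Hmgxb3 and Lyz1 were picked for overlap or likeness with a member. A gene selected by the rule may be left out and is then not reported here.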

Additional observations from a re-analysis of the deposited data

How the results depend on the processing

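All 18 called members kept their direction under the 14 alternatives, and between 13 and 18 of them were called in 12 of these. The other two were the test with the coefficient of variation set at 0.1, which kept 5, and limma on log2(TPM + 1), which kept 8. With the coefficient at 0.1, 703 genes rose and 891 fell in all; 1 member rose, and 1 rose and 0 fell in the homeostatic set and 0 rose in the disease-associated set. With limma, 666 genes rose and 722 fell; 5 members rose and 3 fell, 2 and 1 in the homeostatic set and 3 and 2 in the disease-associated set. With the length and GC trend removed, 13 members rose and 5 fell, and 1 homeostatic gene fell. Leaving out 1 library at a time gave 4 to 6 members that fell and 9 to 11 that rose; the homeostatic set had 0 to 3 falls and 4 to 5 rises, and the disease-associated set 2 to 4 falls and 4 to 6 rises. The homeostatic falls were 0 without Dor cKO replicate 2, the members' falls were 4 without each Dor cKO library in turn, and the disease-associated falls were 2 without Dor cKO replicate 1. In all genes these fits gave 1782 to 2184 rises and 1670 to 2073 falls. The cause was not tested.

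The labels do not say whether the replicate numbers pair the libraries. The correlation of same-numbered deviations across genes was -0.0177, and with 2 libraries in each group this value cannot show whether they do. With the replicate number as a block, 11 members rose and 7 fell, as without it, and 2562 genes rose and 2409 fell in all. With total count scaling, which moved the median of all genes from -0.0036 to -0.0238, 2161 rose and 2529 fell and the members' counts did not change. Members that were not called changed sign in some fits. Cx3cr1 was 0.0068 with limma and -0.0672 to 0.0465 with a library left out, Aif1 -0.2858 to 0.1936, Siglech -0.2636 to 0.0939, Fcrls -0.0698 to 0.0311, Cd68 -0.0366 to 0.2989 and Ccl3 -0.1538 to 0.4726 with a library left out. Ccl4 was -0.0173 with total count scaling, -0.0047 with the coefficient at 0.1, -0.054 with the trend removed, -0.0303 with limma and -0.1769 to 0.2349 with a library left out. DESeq2 gave no adjusted p for Ccl4, and the filter at 1 CPM in 2 libraries removed it. Cst7 and Itgax, at 7 to 55 counts, are limited by depth.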
